A study of Homo sapiens with 4 samples.

Results

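The mRNAs described here encode the nuclear-encoded subunits of the mitochondrial respiratory chain and of ATP synthase, the complexes of oxidative phosphorylation. They were chosen by gene symbol, as every symbol of the deposited table named for an NDUF, SDH, UQCR, COX or ATP5 subunit, and not by any measured value. This gave 79 genes of 12838: 38 of complex I, 4 of complex II, 8 of complex III, 11 of complex IV and 18 of complex V. They lie on 22 chromosomes. The table writes ATP5MD and ATP5MPL for genes now called ATP5MK and ATP5MJ, and NDUFA4, counted with complex I by its symbol, is now called COXFA4 and regarded as a complex IV subunit.

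RNA was recovered by immunoprecipitation (RNA-IP) from LM2-4175 cells, which were derived from MDA-MB-231 breast cancer cells that had colonised the lung, and sequenced. The antibody was against EXOSC10, a 3′ to 5′ exoribonuclease of the nuclear RNA exosome, or was control IgG. The study asked about mRNA degradation when lipid metabolism is altered, and its main contrast was EXOSC10-bound RNA with and without doxycycline. There were 4 libraries in 4 groups: EXOSC10 from cells given doxycycline at 5 µg/mL for 48 h, EXOSC10 from untreated cells, IgG from cells given doxycycline at that dose and time, and IgG from untreated cells. Every group, untreated ones included, carried a stable construct that expresses CerS4, a ceramide synthase, under doxycycline and grew in medium with puromycin and hygromycin, so doxycycline has no control without the construct here. No source used here says whether the line is 1 clone or a pool, and no input RNA was analysed here.

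With 1 library per group, differences between single libraries have no replicates behind them and get no p-value. Values are read counts scaled to a common total (CPM) and then by TMM, a trimmed mean of the log ratios, or log2 ratios of scaled CPM after adding 0.2 CPM, with a 95% interval that covers counting error only. As bulk immunoprecipitates, the libraries cannot tell fewer cells with an mRNA from less of it per cell. CERS4 itself was not analysed here, and its induction by doxycycline was not checked. A gene was called higher or lower where the ratio was at least 2-fold and both libraries together held at least 100 reads. The libraries held between 3723743 and 7575732 estimated reads, of which 56.3% (EXOSC10 with doxycycline) to 83.8% (IgG with doxycycline) lay on ribosomal RNA genes. This left 2408361 other reads in the EXOSC10 doxycycline library and 1023484 to 1229842 in the remaining 3. All 10 LM2-4175 markers looked for, among them VIM and CD44, were in the table, with 3936 to 8880 summed reads per library, though S100A4 was at 0 in the untreated EXOSC10 library. Of 8 markers of blood, vessel, liver and stromal cells, 4 were in the table, with 44.0 to 349 summed reads.

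The respiratory chain passes electrons from NADH through complex I, or from succinate through complex II, to coenzyme Q, on through complex III and cytochrome c to complex IV, where oxygen is reduced. Complexes I, III and IV pump protons across the inner mitochondrial membrane, and ATP synthase, complex V, lets them flow back through a rotating ring of c subunits while its F1 head makes ATP. A small core of complexes I, III, IV and V, but not of complex II, is encoded by mitochondrial DNA. Of 26 mitochondrially encoded symbols looked for, 0 were in the deposited table, so none was analysed here. The subunits measured are transcribed in the nucleus, translated in the cytosol and imported. NRF1, ETS-family factors such as GABP, and YY1 are transcription factors known to act on many of their promoters.

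RefSeq promoter windows (GRCh38.p14, 250 bases before to 50 after the gene's start, 300 in all) were at hand for 67 of the 79 genes. Letter patterns were searched on both strands: GCGCANGCG for NRF1, CCGGAAGT for ETS factors and AAGATGGCG for YY1. The NRF1 pattern stood in 22 of 67 subunit windows (32.8%) and in 11% of 15842 protein-coding windows. The ETS pattern stood in 10 (14.9%) against 6.19%, the YY1 pattern in 8 (11.9%) against 2.74%, and at least 1 of them in 34 (50.7%) against 18.1%. These pattern lengths were settled after the counts were seen: with 1 more letter (C for NRF1, G for YY1), the NRF1 pattern stood in 16 windows (23.9%) against 8.57% and the YY1 pattern in 7 (10.4%) against 1.93%. Such a match is a description of the letters and not a shown binding site. The 250 bases before the start are given for 3 subunits that stand at different places in the results, with pattern matches in capitals: SDHA, which was higher with EXOSC10 than with IgG; UQCRFS1, the only subunit called lower with doxycycline in the EXOSC10 libraries; and NDUFS1, which was lower with EXOSC10 than with IgG. SDHA (chr5:218070-218319, plus strand) holds 4 NRF1 matches, UQCRFS1 (chr19:29213152-29213401, minus strand) 1 NRF1 match and NDUFS1 (chr2:206159445-206159694, minus strand) 1 ETS match.
SDHA: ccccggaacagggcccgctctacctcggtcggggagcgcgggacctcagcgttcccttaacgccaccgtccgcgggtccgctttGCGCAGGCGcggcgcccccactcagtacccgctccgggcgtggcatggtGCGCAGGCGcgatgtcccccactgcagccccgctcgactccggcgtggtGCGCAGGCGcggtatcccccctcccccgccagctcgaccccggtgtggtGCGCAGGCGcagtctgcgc
UQCRFS1: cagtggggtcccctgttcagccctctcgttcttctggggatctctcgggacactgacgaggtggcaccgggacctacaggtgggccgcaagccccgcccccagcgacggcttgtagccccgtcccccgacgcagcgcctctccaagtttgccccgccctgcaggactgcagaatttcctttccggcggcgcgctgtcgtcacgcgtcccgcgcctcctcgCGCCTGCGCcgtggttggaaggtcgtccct
NDUFS1: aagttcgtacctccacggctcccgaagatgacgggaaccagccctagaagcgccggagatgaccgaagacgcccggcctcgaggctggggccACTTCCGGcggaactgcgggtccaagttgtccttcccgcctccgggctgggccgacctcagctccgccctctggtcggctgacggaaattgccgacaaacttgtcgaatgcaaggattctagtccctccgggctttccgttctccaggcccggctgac

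Subunit mRNAs made up a similar share of the non-ribosomal reads in every library, but the make-up of that share differed between the antibodies. The 79 genes took 0.885% of non-ribosomal reads with EXOSC10 after doxycycline, 0.954% with EXOSC10 untreated, 1.02% with IgG after doxycycline and 1.05% with IgG untreated. A single mRNA, ATP5F1B, which encodes the catalytic beta subunit of the F1 head, supplied 22.8% of these subunit reads in the EXOSC10 doxycycline library and 33.3% in the untreated EXOSC10 library. In the IgG libraries it supplied 58.3% with doxycycline and 53.9% untreated. These are shares of reads, not divided by transcript length.

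Together with ATP5F1B, 7 more mRNAs (ATP5F1A, ATP5MC2, ATP5MC3, NDUFS1, NDUFS4, NDUFV2 and NDUFAB1) were lower in both EXOSC10 libraries than in both IgG libraries; they are called the 8 lower subunits below, a set chosen from its values. These 8 held 40.2% and 51.3% of subunit reads in the EXOSC10 libraries with doxycycline and untreated, against 83.2% and 84.8% in the IgG libraries with doxycycline and untreated. The other 71 genes took 0.529% of non-ribosomal reads in the EXOSC10 doxycycline library and 0.465% in the untreated one. In the IgG libraries these 71 took 0.171% with doxycycline and 0.159% untreated.

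**Figure D1:**
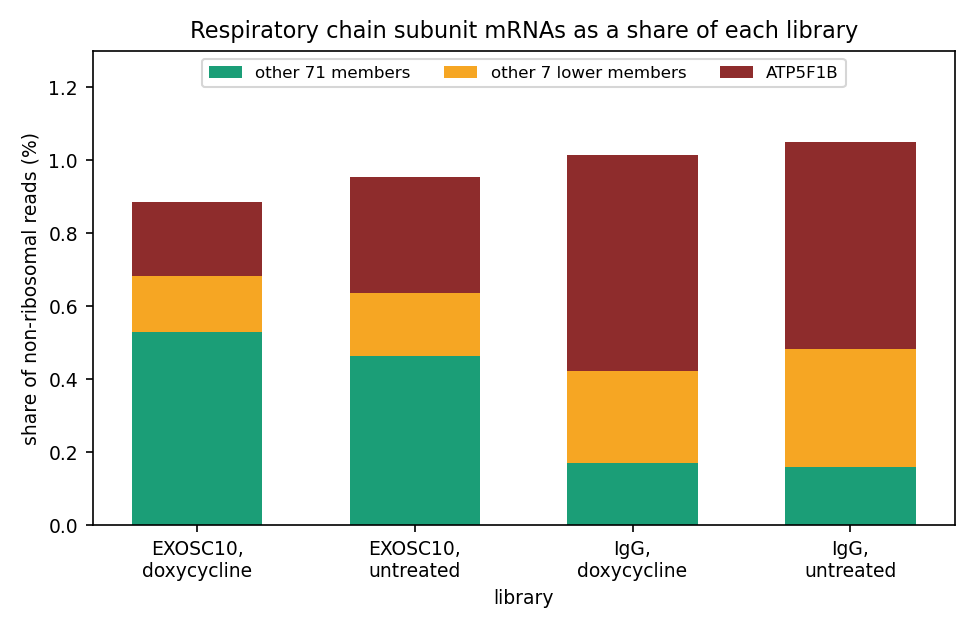
Share of non-ribosomal reads (%) taken by respiratory chain subunit mRNAs in each of the 4 libraries, stacked as the other 71 genes, 7 of the 8 lower subunits, and ATP5F1B. The whole bar runs from 0.885% to 1.05%, while the part of the 71 genes is 0.529% and 0.465% with EXOSC10 against 0.171% and 0.159% with IgG.

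Most subunit mRNAs were above their IgG level in the EXOSC10 libraries, and a small set with members of complexes I and V was far below it. Genes with many reads lay below IgG in general. With at least 500 reads in the pair, the median log2 ratio over all genes was -1.01 with doxycycline (1468 genes) and -1.52 untreated (711 genes). The 6 and 4 subunits that reached 500 reads had medians of -1.43 and -1.94, in the same order. Both EXOSC10 libraries were above both IgG libraries for 42 of the 79 genes (53.2%), where 33.0% of the 9596 genes that had 10 reads or more in at least 2 libraries were. Both were below for 8 (10.1%), against 28.8% of those genes, and the groups overlapped for the remaining 29. By complex, the number above was 21 of 38 in complex I, 2 of 4 in complex II, 5 of 8 in complex III, 6 of 11 in complex IV and 8 of 18 in complex V. The number below was 4 in complex I, 4 in complex V and 0 in complexes II, III and IV.

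In the doxycycline pair 72 of the 79 genes reached 100 reads. Of these, 13 were called higher with EXOSC10 than with IgG (14.0% of all 6279 genes tested were) and 6 were called lower (26.6%). The median log2 ratio was 0.52, beside 0.05 over all genes tested. The counting interval lay above 0 for 34 of the 72 genes (32.1% over all genes) and below 0 for 9 (37.0%).

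In the untreated pair, with fewer reads, only 33 reached the minimum. Of these, 6 were called higher (5.36% of 3621 genes tested) and 8 lower (36.1%), with a median of 0.19 beside -0.45 over all genes tested. The counting interval lay above 0 for 10 (21.7%) and below 0 for 10 (50.5%). Genes with many IgG reads pass this minimum more readily than others: over all 79 genes with no minimum, the median was 0.54 with doxycycline and 0.55 untreated.

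The 8 lower subunits were the 8 called lower in the untreated pair, where they ran from -2.13 to -1.45 and the next gene, NDUFV1, was at -0.64. In the doxycycline pair they ran from -2.59 to -0.46, and only UQCRFS1 (-1.27) and NDUFV1 (-0.61) of the other 71 lay in that range. Because the set was chosen as lower in both EXOSC10 libraries, its ratios below 0 in both pairs follow from that choice. With TMM scaling, 65 of the other 71 were above 0 in the doxycycline pair and 56 in the untreated pair.

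Scaling mostly set the position of 0. Because 0.2 CPM is added after scaling, the shift differs somewhat between genes, and their order can change slightly. Scaled to total reads, the ratios shifted by about 2.43 in the doxycycline pair and 0.79 in the untreated pair, and scaled to non-ribosomal reads by about 1.02 and 1.01. Untreated, both scalings left exactly the 8 lower subunits below 0 and the other 71 above it. With doxycycline, only ATP5F1B stayed below 0 by total reads (-0.13), while by non-ribosomal reads 7 genes did, 6 of the 8 among them. The lower direction of the other 7 in the doxycycline pair therefore holds relative to other genes and not by total reads.

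**Figure D2:**
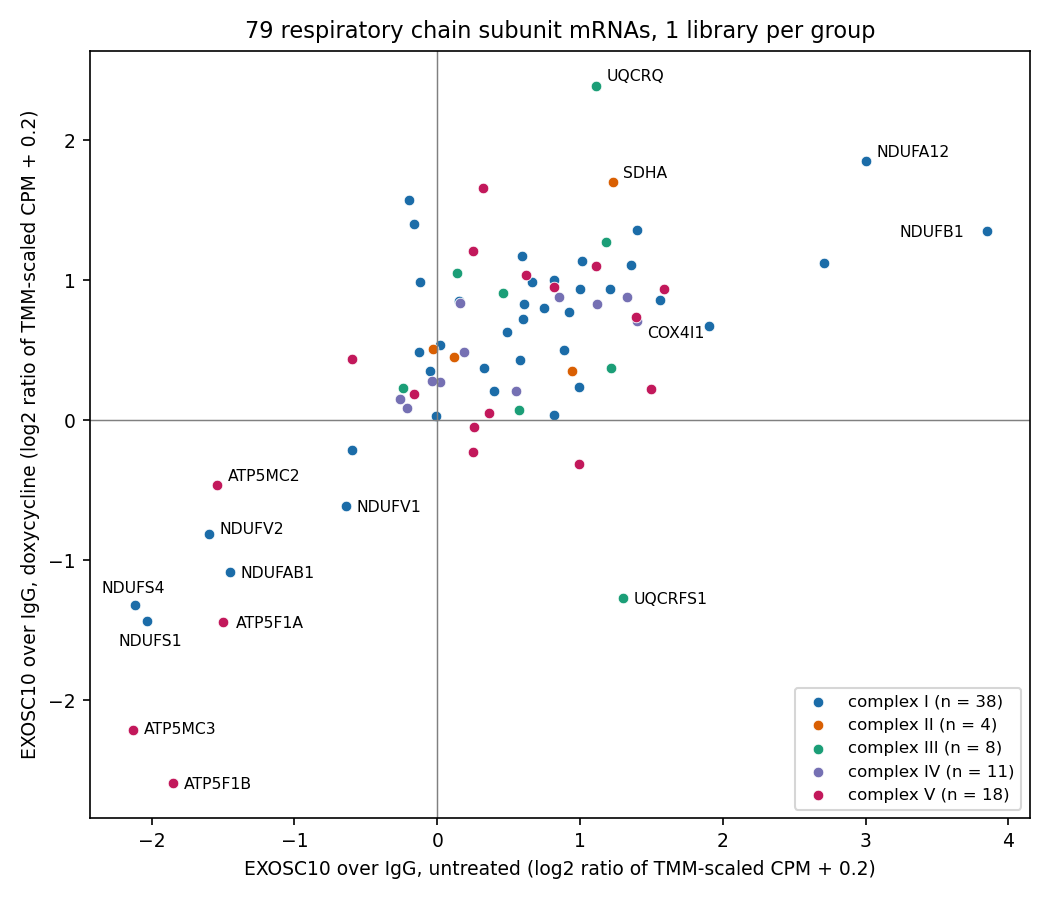
Log2 ratio of EXOSC10 over IgG for the 79 subunit mRNAs, with doxycycline (vertical axis) and untreated (horizontal axis), TMM-scaled, coloured by complex; each point is 1 gene and each axis compares 1 library with 1 library. The 8 lower subunits sit together at the lower left, from -2.13 to -1.45 on the horizontal axis. The place of genes with few IgG reads, such as NDUFB1 and NDUFA12 at the right, depends on the 0.2 CPM added.

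A test over all 4 libraries used limma with treatment as covariate, which left 1 residual degree of freedom, so treatment stands in for replication. It called 2 of the 79 subunits higher with EXOSC10 than with IgG (1.35% of all 9596 genes were) and 7 lower (15.8%), at a Benjamini-Hochberg adjusted p of 0.05. The 2 were SDHA and COX4I1, and the 7 were the 8 lower subunits without ATP5MC2. These calls rest on limma's mean-variance trend: without it limma called 0 higher and 0 lower, with 18 subunits at an unadjusted p under 0.05. With total-read scaling limma called 2 higher and 0 lower. With non-ribosomal scaling it called 58 higher and 2 lower.

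In ATP synthase, 2 of the 5 mRNAs of the F1 head and central stalk and 2 of the 3 of the c ring gave the lowest ratios. The mRNAs of the peripheral stalk, which holds the head still, lay mostly above IgG. ATP5F1B (chr12:56638175-56645984) had 352 scaled CPM in the EXOSC10 doxycycline library and 620 in the untreated one, against 2124 and 2240 in the IgG libraries with doxycycline and untreated. Both EXOSC10 values were below both IgG values. Its log2 ratio over IgG was -2.59 with doxycycline (95% interval -2.64 to -2.54, 6.03-fold lower) and -1.85 untreated, and limma gave -2.22 (SE 0.39, adjusted p = 0.00509 by Benjamini-Hochberg). ATP5F1A (chr18:46080248-46104227), the alpha subunit beside it in the head, had 60.0 and 72.0 scaled CPM with EXOSC10 against 163 and 205 with IgG, doxycycline before untreated in each pair. It was lower in both treatments by similar amounts, -1.44 and -1.5, and in limma (-1.47, SE 0.24, adjusted p = 0.0037). ATP5F1C, the gamma subunit of the rotating central stalk, was called higher with doxycycline (1.66, interval 0.65 to 3.12). It had 94.0 reads with EXOSC10 and 6.9 with IgG there, so it passed the minimum of 100 reads through the EXOSC10 library. Untreated it had too few reads. ATP5F1D and ATP5F1E, also of the head and central stalk, were at 0.05 and -0.31 with doxycycline and had under 100 reads untreated.

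The c ring offers a comparison among 3 genes, since ATP5MC1, ATP5MC2 and ATP5MC3 encode the same mature c subunit with different import sequences. ATP5MC3 (chr2:175176258-175181710) had 114 and 176 scaled CPM with EXOSC10, doxycycline and untreated, against 528 and 771 with IgG. It was lower in both pairs, at -2.21 (-2.31 to -2.12) and -2.13 (-2.25 to -2.02), and in limma (-2.17, SE 0.27, adjusted p = 0.00178). ATP5MC2 (chr12:53665170-53681423) was at -0.46 with doxycycline and -1.54 untreated, and did not pass limma's threshold (-1.0, adjusted p = 0.107). ATP5MC1 was at 0.19 and -0.16, with 13.0 and 13.8 scaled CPM with EXOSC10 against 11.4 and 15.4 with IgG, so its groups overlapped. ATP5MC1 held whole reads and the other 2 fractions of reads, as arise where a read is divided between gene models.

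For 3 of the 4 peripheral stalk genes both EXOSC10 libraries were above both IgG libraries, where 33.0% of 9596 genes were. With doxycycline 2 were called higher, ATP5PB (1.21) and ATP5PO (1.04), where 14.0% of all genes tested were. ATP5PD was called higher untreated (1.5) and was at 0.22 with doxycycline. Among the 5 small membrane subunits, ATP5MF had 17.4 and 20.4 scaled CPM with EXOSC10, doxycycline and untreated, against 8.04 and 9.37 with IgG. It was the only subunit of complex V called higher in both pairs (1.10 and 1.11), and its limma adjusted p was 0.0749; ATP5MF overlaps the read-through gene ATP5MF-PTCD1. ATP5IF1, the inhibitor that blocks ATP hydrolysis by the synthase, had 0.74 with doxycycline, within the fold threshold, and under 100 reads untreated.

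In complex I, the lower subunits were 2 core and 2 accessory proteins, beside 3 core and 17 accessory genes for which both EXOSC10 libraries were above both IgG libraries. NDUFS1 (chr2:206114817-206159444), the large iron-sulphur core subunit whose promoter is shown above, had 39.7 and 31.5 scaled CPM with EXOSC10, doxycycline and untreated, against 107 and 129 with IgG. Its ratios were -1.43 (-1.63 to -1.24) and -2.03 (-2.31 to -1.76), and limma gave -1.73 (SE 0.27, adjusted p = 0.00293). NDUFV2 (chr18:9102699-9134341), an iron-sulphur core subunit of the NADH-oxidising end, had 16.5 and 15.5 scaled CPM with EXOSC10 against 29.2 and 47.4 with IgG, in the same order. It was below IgG in both treatments, but past 2-fold only untreated (-0.81 and -1.60; limma -1.21, SE 0.32, adjusted p = 0.0338). NDUFV1, its partner that binds NADH and FMN, was at -0.61 and -0.64, inside the fold threshold, and its groups overlapped.

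NDUFS4 (chr5:53560639-53683338), an accessory subunit mutated in Leigh syndrome, had 10.3 and 10.7 scaled CPM with EXOSC10, doxycycline and untreated, against 25.9 and 47.0 with IgG. It was lower in both pairs, at -1.32 and -2.12, and in limma (-1.72, SE 0.34, adjusted p = 0.0091). NDUFAB1 (chr16:23581014-23596316), the mitochondrial acyl carrier protein, which also serves fatty acid synthesis and iron-sulphur cluster assembly, had 15.3 and 18.2 scaled CPM with EXOSC10 against 32.7 and 50 with IgG, doxycycline before untreated. It was at -1.08 and -1.45 (limma -1.27, SE 0.29, adjusted p = 0.0182). These were the 2 of 30 accessory genes of complex I for which both EXOSC10 libraries were below both IgG libraries.

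The complex I genes called higher with doxycycline were NDUFA12 (1.85), NDUFA7 (1.57), NDUFA2 (1.40), NDUFB5 (1.36) and the core subunit NDUFS3 (1.11), all with 15.0 or fewer reads in the IgG doxycycline library. They thus reached the minimum of 100 reads mostly through the EXOSC10 library, so a gene low there drops out more readily. Untreated, all of them had under 100 reads. There NDUFA7 (-0.2) and NDUFA2 (-0.16) were below 0, while NDUFA12, NDUFB5 and NDUFS3 were above it. NDUFB4, an accessory subunit of the membrane arm, was the 1 called higher untreated (1.21). It was at 0.94 with doxycycline, and limma gave 1.07 with an adjusted p of 0.0743. NDUFB1 had 14.0 reads in the untreated EXOSC10 library and 0 in the untreated IgG library, at least 2.37-fold higher with 3 reads taken as the floor of the IgG library.

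SDHA was the 1 subunit of complexes II to IV called higher than IgG in both treatments. SDHA (chr5:218320-268746), the flavoprotein that oxidises succinate, had 607 and 209 reads with EXOSC10, doxycycline and untreated, against 46 and 45 with IgG, or 44.0 and 39.9 scaled CPM against 13.4 and 16.9. Both EXOSC10 values lay above both IgG values, by 1.70 (1.28 to 2.18) with doxycycline and 1.23 (0.77 to 1.74) untreated. Limma called it higher (1.46, SE 0.30, adjusted p = 0.0106). Its pseudogenes SDHAP1, SDHAP2 and SDHAP3 have rows of their own in the table, with at most 25.1 reads, and reads divided between such copies are uncertain. SDHC, a membrane anchor, was at 0.35 with doxycycline and 0.94 untreated; SDHB and SDHD did not reach 100 reads in the untreated pair.

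All 7 complex III genes tested with doxycycline were above 0, from 0.07 to 2.39, where 51.4% of all 6279 genes tested were. Of the 7, 3 were called higher (14.0% over all genes). UQCRFS1, at -1.27, had under 100 reads in that pair. The tested genes reached the minimum mostly through reads of the EXOSC10 library, so a gene low there drops out more readily. UQCRQ, a small subunit near cytochrome b, had 8.49 and 9.17 scaled CPM with EXOSC10, doxycycline and untreated, against 1.46 and 4.14 with IgG. Its ratio with doxycycline was 2.39 with a wide interval, 1.28 to 4.19. UQCRH, the hinge subunit of cytochrome c1, had 8.70 and 11.3 against 3.50 and 4.89 scaled CPM in the same order, and a ratio of 1.27 with doxycycline. UQCRB was at 1.05, and its pseudogene UQCRBP1 has a row in the table. Untreated, 3 complex III genes reached 100 reads and 0 were called.

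All 11 complex IV genes were above 0 with doxycycline, in a narrow range from 0.09 to 0.88, and 0 were called. Untreated, 7 were tested, from -0.04 to 1.40, and COX4I1 and COX8A (1.12) were called higher. COX4I1 (chr16:85799695-85807068), the regulatory subunit that starts assembly around the catalytic core, had 56.1 and 65.9 scaled CPM with EXOSC10, doxycycline and untreated, against 34.1 and 24.8 with IgG. Its ratios were 0.71 (0.44 to 1.01) and 1.40 (1.03 to 1.81), and limma called it higher (1.06, SE 0.28, adjusted p = 0.0351). COX7A2 and COX7A2L, related proteins of complex IV and of its supercomplex with complex III, were at 0.09 and 0.21 with doxycycline and -0.21 and 0.55 untreated.

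**Figure D3:**
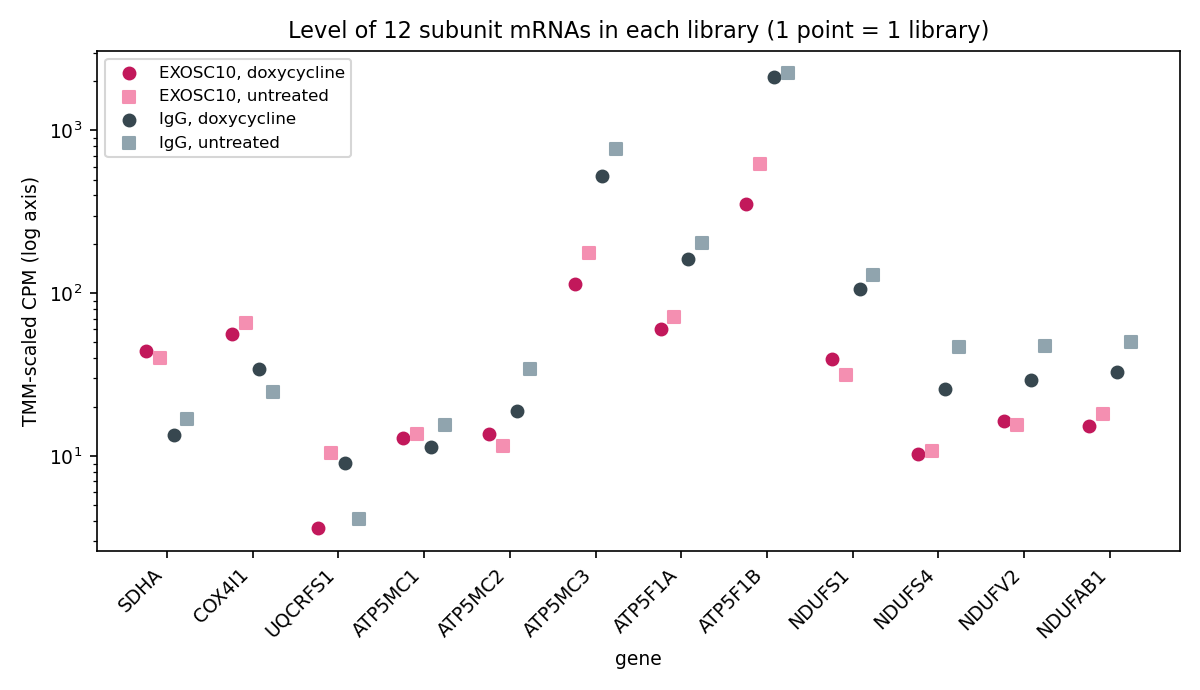
TMM-scaled CPM (log axis) of 12 subunit mRNAs in the 4 libraries; each point is 1 library and there are no error bars because no group has a replicate. SDHA and COX4I1 have both EXOSC10 points above both IgG points, and the 8 lower subunits have both below; for UQCRFS1 and ATP5MC1 the antibodies overlap.

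The order of the subunits by their ratio over IgG was similar in the 2 treatments, which share no library. Across the 33 genes that reached 100 reads in each pair, Pearson's r was 0.87 and Spearman's rho 0.77, given as a description across genes, which are not independent. Over all 3601 such genes the values were 0.79 and 0.81. Without the 8 lower subunits, r was 0.57 and rho 0.50 over 25 genes.

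Few subunit mRNAs differed by 2-fold between the EXOSC10 libraries with and without doxycycline. Of 75 genes with 100 reads, 3 were called higher with doxycycline than untreated (6.06% of all 6584 genes tested were) and 1 lower (3.98%). The median log2 ratio was -0.02, beside -0.04 over all genes, with a range from -1.48 to 1.40. The interval lay above 0 for 15 genes (22.2% over all genes) and below 0 for 12 (28.5%). NDUFB1, NDUFB3, NDUFB8 and NDUFC1 had too few reads. The medians were 0.03 for complex I, 0.08 for complex II, 0.02 for complex III, -0.02 for complex IV and -0.14 for complex V. Total-read scaling shifts all of these by about 1.01, so signs near 0 hold only relative to other genes.

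UQCRFS1 (chr19:29205320-29213151), the Rieske iron-sulphur protein that accepts electrons from ubiquinol in complex III, was the 1 gene called lower. It had 50 reads with EXOSC10 after doxycycline and 55 with EXOSC10 untreated, beside 31 with IgG after doxycycline and 11 with IgG untreated. In scaled CPM these were 3.63 and 10.5 with EXOSC10 and 9.04 and 4.14 with IgG, so doxycycline was the low library with EXOSC10 and the high one with IgG. The EXOSC10 ratio was -1.48 (-2.12 to -0.96, 2.80-fold lower), and it stayed below 0 by total reads (-0.51) and by non-ribosomal reads (-1.34). The other 7 complex III genes ran from -0.37 to 0.69.

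The 3 genes called higher were accessory subunits of complex I, each with few reads untreated. NDUFA2 had 100 and 13.7 reads with EXOSC10, doxycycline and untreated, and 9.0 and 7.8 with IgG. Its ratio was 1.40 (0.65 to 2.40). NDUFA5 (103.3 and 16.9 reads with EXOSC10) and NDUFB6 (102.8 and 16.8) were both at 1.17 (0.46 to 2.05). With IgG, NDUFA5 had 15.9 and 1.9 reads and NDUFB6 13.0 and 4.0, doxycycline before untreated. Their IgG ratios were thus also above 0, at 2.40 (0.57 to 5.96) and 1.23 (-0.36 to 3.41), on few reads. All 3 held fractions of reads and lay close to the minimum of 100, as did UQCRFS1 with 105 reads in the pair, and NDUFA2 overlaps TMCO6. Just under the fold threshold were COX7C, a small complex IV subunit with 24.6 scaled CPM with doxycycline and 13.8 untreated (0.83, 0.47 to 1.23), and SDHD, a membrane anchor of complex II (0.81).

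Several more genes had an interval away from 0 at less than 2-fold. The 2 genes with the most reads, ATP5F1B, the lowest of complex V, and ATP5MC3, were at -0.82 and -0.63 with EXOSC10; by total reads ATP5F1B turned to 0.20. NDUFV1 was the lowest of complex I (-0.77, and 11.8 scaled CPM with doxycycline against 20.3 untreated), and SDHB of complex II (-0.59). On the other side were SDHD, COX7C, NDUFB2 (0.73), UQCR11 (0.69), ATP5PF (0.68) and NDUFA9 (0.66), where NDUFB2 rests on 89 and 20 reads with an interval of 0.04 to 1.54. Each complex held genes on both sides.

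**Figure D4:**
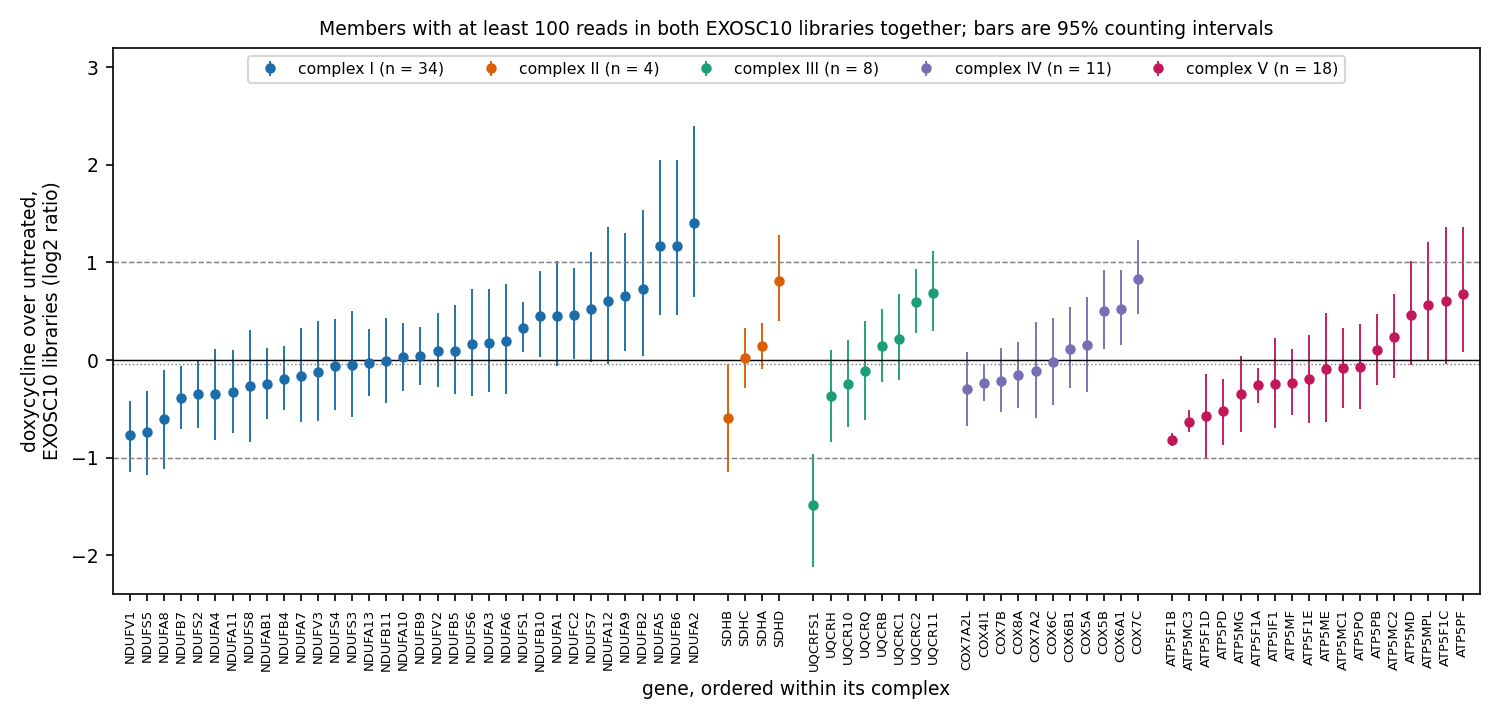
Log2 ratio of doxycycline over untreated in the EXOSC10 libraries for the 75 subunits with at least 100 reads, ordered within each complex; points are 1 library over 1 library, bars are 95% counting intervals, dashed lines mark 2-fold and the dotted line is the median of all genes, -0.04. UQCRFS1 at -1.48 lies below the lower dashed line, and NDUFA2, NDUFA5 and NDUFB6 lie above the upper one.

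With control IgG, 13 subunits reached 100 reads over both treatments, and 0 were called higher (2.97% of 3027 genes tested) or lower (3.44%) with doxycycline than untreated. The interval lay below 0 for 11 of the 13 (27.4% over all genes) and above 0 for 2 (20.1%), NDUFB9 (0.79) and COX4I1 (0.46). Their median was -0.61, beside -0.05 over all genes, but these 13 are the genes with many IgG reads and hold all 8 lower subunits. Over all 79 genes with no minimum the median was -0.08. ATP5F1B, which had the most reads, was at -0.08, and NDUFS4 (-0.85) and ATP5MC2 (-0.84) were lowest.

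The change of the ratio over IgG between treatments, doxycycline minus untreated, could be measured for 13 subunits, those with 100 reads or more in both the EXOSC10 pair and the IgG pair, with no replicate behind it. Its counting interval lay above 0 for 4 of them (17.8% of 2946 genes) and below 0 for 3 (31.8%), and held 0 for the other 6. The 4 above were ATP5MC2 at 1.08 (0.46 to 1.70), NDUFS4 at 0.80 (0.20 to 1.39), NDUFV2 at 0.79 (0.26 to 1.32) and NDUFS1 at 0.60 (0.27 to 0.93), all of them among the 8 lower subunits. All 8 lower subunits are among these 13, and they are the genes called lower by the untreated ratio that is subtracted here. That choice by itself favours a change above 0, so this overlap is no separate result. The 3 below were NDUFB9 at -0.75 (-1.41 to -0.09), ATP5F1B at -0.74 (-0.82 to -0.66) and COX4I1 at -0.69 (-1.16 to -0.21), and by total reads all 3 turned, to 0.91, 0.93 and 0.98. By total reads all 13 were above 0. Among subunits under that minimum, UQCRFS1 (-2.58), ATP5F1E (-1.30) and ATP5PD (-1.28) had intervals below 0 with TMM scaling. NDUFA7 (1.77), NDUFB10 (1.12), ATP5PB (0.96) and UQCRB (0.91) had intervals above it. By total reads UQCRFS1 stayed below 0 (-0.95). Since that scaling raised the change of all 13 tested subunits, the sign of ATP5F1E and ATP5PD holds only relative to other genes.

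Other genes of mitochondrial energy metabolism gave a mixed picture with doxycycline in the EXOSC10 libraries. Of 53 assembly factors in the table, which build the complexes without staying in them, 21 were tested, 4 were called higher and 0 lower, with a median of 0.05, where 6.06% of all genes tested were called higher and 3.98% lower. The 4 were TTC19 (1.56) and BCS1L (1.07), which handle the Rieske protein UQCRFS1 in complex III assembly, the copper chaperone COX11 (1.13) of complex IV and ATPAF1 (1.04), a chaperone of the F1 head. Of 18 genes of the tricarboxylic acid (TCA) cycle, 16 were tested and SUCLG1, a subunit of succinyl-CoA ligase, was called higher (1.80), with a median of -0.13. Of 16 electron carriers and donors, 7 were tested and COQ9, of coenzyme Q synthesis, was called lower (-1.08), with a median of -0.49.

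Over IgG with doxycycline, the isocitrate dehydrogenase mRNAs IDH2 (-2.11), IDH3G (-1.96) and IDH3B (-1.19) were called lower, as was DLD (-1.05), a shared subunit of the 2-oxoacid dehydrogenases. Citrate synthase, CS (1.14), DLAT (1.52) and SUCLG2 (1.28) were called higher. Of the 7 carriers tested, cytochrome c, CYCS, was called higher (1.32) and COQ9 lower (-1.14). Among 18 assembly factors tested, 5 were called higher and 1 lower, UQCC2 of complex III (-2.37 with doxycycline and -1.84 untreated). Over all 6279 genes tested with doxycycline, 14.0% were called higher and 26.6% lower.

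Mitochondrial ribosomal proteins, also nuclear-encoded and imported, had 13 called higher and 0 lower of 43 tested over IgG with doxycycline, with a median of 0.71, where 14.0% of all genes tested were called higher and 26.6% lower. Both EXOSC10 libraries were above both IgG libraries for 37 of 69 (53.6%) and below for 2 (2.90%). Cytosolic ribosomal proteins had 3 called higher and 13 lower of 75, with a median of 0.42, and were above for 47 of 79 (59.5%) and below for 20 (25.3%). Over all 9596 genes 33.0% were above and 28.8% below. These stand beside 42 and 8 of the 79 respiratory chain subunits, and the differences between the lists were not tested.

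Of the 79 subunit genes, 51 held whole reads in all libraries and 28 fractions, 13 overlap another gene of the table and 50 have at least 1 named pseudogene. Among the 8 lower subunits, 5 held fractions, 1 overlaps another gene (ATP5F1B with BAZ2A) and 5 have a named pseudogene. NDUFS1, on whole reads, overlaps no gene of the table and has 0 named pseudogenes. How reads were counted, and whether by strand, is not given in the sources used here, so reads of overlapping genes cannot be told apart.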

How the data were processed

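Total RNA from 4 RNA immunoprecipitates was made into libraries with a SMARTer kit, per the labels' protocols. Per the submitters' processing notes, STAR and Partek were used with hg38. The deposited table gives CPM (from its values: each column sums to 1000000 apart from a constant of 0.0001 per entry). The 24015 entries were summed into 12838 symbols, of which 12542 are current, 197 older and 99 unmatched in the GRCh38.p14 gene table used for coordinates. Every entry reached at least 10.0 reads in a library.

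Estimated reads are CPM over the value of 1 read (0.181 and 0.236 CPM in the EXOSC10 doxycycline and untreated libraries, 0.132 and 0.269 CPM in the IgG ones). Between 64.8% and 72.0% of genes were within 0.05 of a whole read, so count models planned earlier were replaced by limma 3.58.1 (R 4.3.3) on log2(CPM + 0.2), with a trend, over 9596 genes. Ratios of low genes are understated on this scale. TMM trimmed 30% of ratios and 5% of levels; its factors were 2.50 and 1.24 with EXOSC10 and 0.453 and 0.714 with IgG, doxycycline before untreated. Intervals are exact Clopper-Pearson intervals on estimated reads, except for the change of ratio, where summed reciprocal reads were used. They cover counting error only, since no molecular identifiers mark independent molecules. Ratios were also taken with other scalings, pseudocounts, minimums and member sets. Genes were named as called, as nearest each threshold, as lowest and highest of a complex, or by role. The members, lists and tests were chosen with earlier results of these data known.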

Additional observations from a re-analysis of the deposited data

Results flagged for a closer look

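In 3 of the 79 subunits the doxycycline over untreated ratio had counting intervals on opposite sides of 0 with EXOSC10 and with IgG. The difference was not tested because each value rests on 1 library over 1 library. The share of all genes with such intervals was not counted, so 3 cannot be called many or few. UQCRFS1 was at -1.48 with EXOSC10 and 1.09 with IgG, where the IgG value rests on 31 and 11 reads, doxycycline and untreated. COX4I1 was at -0.23 with EXOSC10 and 0.46 with IgG, where the IgG interval began at 0.01. NDUFS1 was at 0.33 with EXOSC10 and -0.27 with IgG. By total reads UQCRFS1 (-0.51 and 0.44) and NDUFS1 (1.34 and -0.92) kept opposite signs in the same directions, while COX4I1 turned to 0.78 with EXOSC10 and -0.20 with IgG. By non-ribosomal reads the values were -1.34 and 1.21 for UQCRFS1, -0.07 and 0.60 for COX4I1, and 0.49 and -0.13 for NDUFS1, with EXOSC10 before IgG.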

How the results depend on the processing

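No paired analysis was possible because each group has 1 library and the labels give no replicate numbers; the antibody test in limma takes treatment as a covariate, and without it called 2 higher and 7 lower, the same counts. Counts below are subunits called higher and lower, and medians are relative to the median of all genes tested (0.01 for EXOSC10 and -0.56 for IgG with doxycycline over untreated, 0.48 and 0.64 for EXOSC10 over IgG with doxycycline and untreated, as reported). Total-read scaling gave 36 higher and 0 lower for EXOSC10 with doxycycline, 8 lower for IgG with doxycycline, 70 higher and 0 lower for EXOSC10 over IgG with doxycycline, and 16 higher and 4 lower untreated. Non-ribosomal scaling gave 59 higher and 2 lower over IgG with doxycycline and 19 higher and 3 lower untreated. A pseudocount of 1 CPM gave a median of 0.43 over IgG with doxycycline.

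A minimum of 20 reads gave 3 higher and 1 lower for IgG with doxycycline and 19 higher over IgG untreated, with medians of -0.06, -0.15, 0.25 and 0.42 in the order above. A minimum of 500 reads left 7 subunits or fewer: 0 higher and 0 lower for EXOSC10 with doxycycline, 1 higher over IgG with doxycycline, and 0 higher and 4 lower untreated. Its medians were -0.10, -0.18, -0.43 and -0.42, the last 2 with reversed sign, where fewer genes were tested. Genes on whole reads gave 0 higher for EXOSC10 with doxycycline, 7 higher and 2 lower over IgG with doxycycline and 3 lower untreated, with medians of -0.70 for IgG with doxycycline and 0.44 and 0.57 over IgG. Thinning every library to the non-ribosomal reads of the smallest one gave 0 higher and 0 lower for EXOSC10 with doxycycline and 5 higher over IgG with doxycycline (median 0.66).

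Of the alternatives chosen after seeing the data, subunits overlapping no other gene gave medians of -0.60 for IgG with doxycycline and 0.55 over IgG with doxycycline. Subunits without a named pseudogene gave 0 lower for EXOSC10 with doxycycline, 4 higher and 3 lower over IgG with doxycycline, and 1 higher and 3 lower untreated, with medians of -0.03, -0.71, 0.68 and 0.21. Limma called 58 higher and 2 lower with non-ribosomal scaling, 0 lower with total reads, 6 higher with a pseudocount of 1 CPM, 1 higher and 3 lower on whole reads, 5 higher with no filter, 4 higher with 100 reads in total, and 0 and 0 without the trend. Where no cause is named it was not tested. Depth limits the IgG comparison most, where 66 subunits had under 100 reads, and then EXOSC10 over IgG untreated, where 46 had.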
